A study of Mus musculus with 6 samples.

Results

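Transcripts of the nitric oxide and arginine pathway were examined in fetal aortic arteries as 10 genes, namely the nitric oxide synthases Nos1, Nos2 and Nos3, the cofactor enzyme gene Gch1, the arginases Arg1 and Arg2, the methylarginine hydrolases Ddah1 and Ddah2, and the soluble guanylate cyclase subunits Gucy1a3 and Gucy1b3. They were chosen by gene name, as every non-control probe of the array carrying one of these names. This gave 14 of 55681 non-control probes, and 8 of the 10 genes had a probe bright enough to be among the 21478 genes tested. All fetuses were C57BL/6 littermates carried by Nod1 -/- dams that had been mated with Nod1 +/- males, and every dam received 500 µg of FK565 under the skin at E18.5. FK565 is a synthetic ligand of NOD1, an intracellular sensor of bacterial peptidoglycan. The vessels were collected 6 h after the injection, and 3 arrays were hybridised with RNA of Nod1 +/- fetuses and 3 with RNA of Nod1 -/- fetuses. The design text gives the aim as examining direct responses of the fetal vasculature to the ligand in dams that lack the receptor. No array came from a dam without FK565, so each difference below is one of genotype under the ligand. The labels do not say whether an array held a single fetus, and p-values therefore measure the spread between these samples.

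Nitric oxide is made from arginine by the nitric oxide synthases, which need tetrahydrobiopterin as a cofactor, and arginases compete for the same arginine by turning it into ornithine and urea. Methylated arginines released from proteins inhibit the synthases and are broken down by the DDAH enzymes. In vessels, nitric oxide from the endothelium binds soluble guanylate cyclase in smooth muscle, and the cyclic GMP that is formed relaxes the muscle. In innate immune responses the inducible synthase NOS2 and GTP cyclohydrolase, the product of Gch1, are induced by inflammatory signals, many of them through NF-kB, which also lies downstream of NOD1.

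The sequences behind the main differences are shown first. Gch1 was read by a pair of probes that gave different values, and Nos2 by a single probe. The opening 30 of the 60 bases of each are printed 5′ to 3′, with no part marked.

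Gch1 probe a (mm9, chr14:47773797-47773856, minus strand): ctgaacgaccctgttgggtcattctctaga
Gch1 probe b (mm9, chr14:47775348-47775407, minus strand): cgtacattccagtttcagttggtacacttg
Nos2 probe (mm9, chr11:78773567-78773626, plus strand): caccatgccgccgctctaatacttagctgc

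Promoters were looked up in RefSeq (GRCm38.p6), where 6 of the 10 genes were found. The array's names Gucy1a3 and Gucy1b3 correspond to the current symbols Gucy1a1 and Gucy1b1. The 250 bases before the start are shown for Gch1, which was higher in Nod1 +/- aortas, and for the cyclase subunits, which were lower. Capitals mark matches, on either strand, to 7 motifs: the kappaB consensus bound by NF-kB, the AP-1 site, the CRE (TGACGTCA), the GC box (GGGCGG), the CCAAT box (CCAAT), the TATA box (TATAAA) and the E box (CACGTG).

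Gch1 (chr14:47189414-47189663, minus strand): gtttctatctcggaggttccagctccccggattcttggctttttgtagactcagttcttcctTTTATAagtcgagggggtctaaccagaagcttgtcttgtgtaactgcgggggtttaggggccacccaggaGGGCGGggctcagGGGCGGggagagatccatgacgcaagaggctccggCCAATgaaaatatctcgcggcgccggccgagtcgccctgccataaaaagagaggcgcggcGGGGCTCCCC
Gucy1a3 (chr3:82145651-82145900, minus strand): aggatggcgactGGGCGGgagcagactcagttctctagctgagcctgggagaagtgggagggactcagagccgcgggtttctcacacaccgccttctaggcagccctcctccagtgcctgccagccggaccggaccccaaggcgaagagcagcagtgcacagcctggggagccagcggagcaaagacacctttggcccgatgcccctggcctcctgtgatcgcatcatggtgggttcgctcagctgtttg
Gucy1b3 (chr3:82074712-82074961, minus strand): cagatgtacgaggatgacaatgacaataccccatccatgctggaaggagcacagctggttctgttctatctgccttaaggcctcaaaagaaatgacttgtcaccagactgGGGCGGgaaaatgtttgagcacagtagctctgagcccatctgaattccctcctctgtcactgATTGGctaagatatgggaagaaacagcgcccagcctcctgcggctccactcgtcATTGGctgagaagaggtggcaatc

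The Gch1 stretch held 1 kappaB match, which reads as a match on both strands, next to the start, together with 2 GC boxes, 1 CCAAT box and 1 TATA box on the opposite strand. The Gucy1a3 stretch held 1 GC box, and a further Gucy1a3 start in the table held no match. The Gucy1b3 stretch held 1 GC box and 2 CCAAT boxes. Of 32851 mouse promoters of the same length, 7.25% held a kappaB match, 32.7% a GC box, 33.8% a CCAAT box and 12.4% a TATA box, while an AP-1 match was present in 4.46%, a CRE in 1.55% and an E box in 6.02%. Among the other promoters found, Nos1 held 1 kappaB match, Ddah2 held 2 GC boxes and Ddah1 held no match. A match describes the letters of the window only.

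Values below are log2 signal minus the 75th percentile of the array, and differences are Nod1 +/- minus Nod1 -/- with their standard error (SE). Means are given with SD, n = 3. The 75th percentile lay between 372.7 and 440.7 signal units, and 48.6% to 58.4% of probes were well above background. Nod1 itself lay at 3.15, 3.19 and 3.78 on the Nod1 +/- arrays and at 3.20, 3.18 and 3.35 on the Nod1 -/- arrays (difference 0.13, SE 0.19, limma's adjusted p = 0.649). Where its probe lies relative to the deleted part is not given in the sources used here, so this probe does not check the genotype labels. The tissue label was compared with smooth muscle markers, all 10 of which were detected on all arrays, with Acta2, the smooth muscle actin gene, between 8.76 and 8.82. All 8 cardiac muscle markers were detected on all arrays too. Their means were 4.71 to 5.34 in Nod1 +/- and 3.96 to 5.05 in Nod1 -/- aortas, against 4.35 to 4.72 and 4.24 to 4.67 for smooth muscle. The samples thus also held cardiac muscle transcripts, and their part in the values below was not tested. Over all genes tested the differences had a median of -0.10, and scaling by the array median instead moved it to 0.01 and the split of changed genes from 1646 higher and 2369 lower to 1600 higher and 924 lower.

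Of the 8 pathway genes tested, 3 were higher in Nod1 +/- aortas (Gch1, Nos2 and Ddah1), 2 were lower (Gucy1a3 and Gucy1b3) and 3 did not pass the threshold (limma, adjusted p under 0.05 over all genes tested). Over all genes, 18.7% passed, 7.66% as higher and 11% as lower. Of the 11 probes kept, 6 passed, against 16% of all probes kept. The genotypes did not overlap for 7 of the 8 genes, against 42.4% of all genes. The median difference of the 8 genes was 0.15, and their median absolute difference was 0.68, against 0.28 for all genes. The genes were chosen with earlier results of these data known, so these comparisons with all genes are descriptive and no test of the set. Neutrophil marker transcripts also separated the genotypes, with means of 0.31 to 0.96 in Nod1 +/- and -1.57 to -1.38 in Nod1 -/- aortas. Marker means separated them in the other direction for endothelium (1.53 to 1.69 against 1.78 to 2.01) and fibroblasts (5.47 to 5.59 against 5.76 to 5.96). The endothelial genes did not move as a group. Of these 10 genes limma called 2 lower and 1 higher, and Tek had by far the largest difference (-1.92). Without overlap, means were also lower in Nod1 +/- for Schwann cells and glia (-0.26 to 0.10 against 0.79 to 1.40) and red cells (2.62 to 3.35 against 3.59 to 4.24). Non-overlap was common, also among single genes (42.4%). The Schwann cell mean covered 4 tested genes of 8 listed, of which Sox10, named after its value was seen, went the other way (0.33). Without the filter on dim probes the median difference of all 8 was 0.07. Of 6 red cell genes limma called 0. The part of any of these cell types in the differences was not tested. The number of arrays limits the precision of every value.

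**Figure D1:**
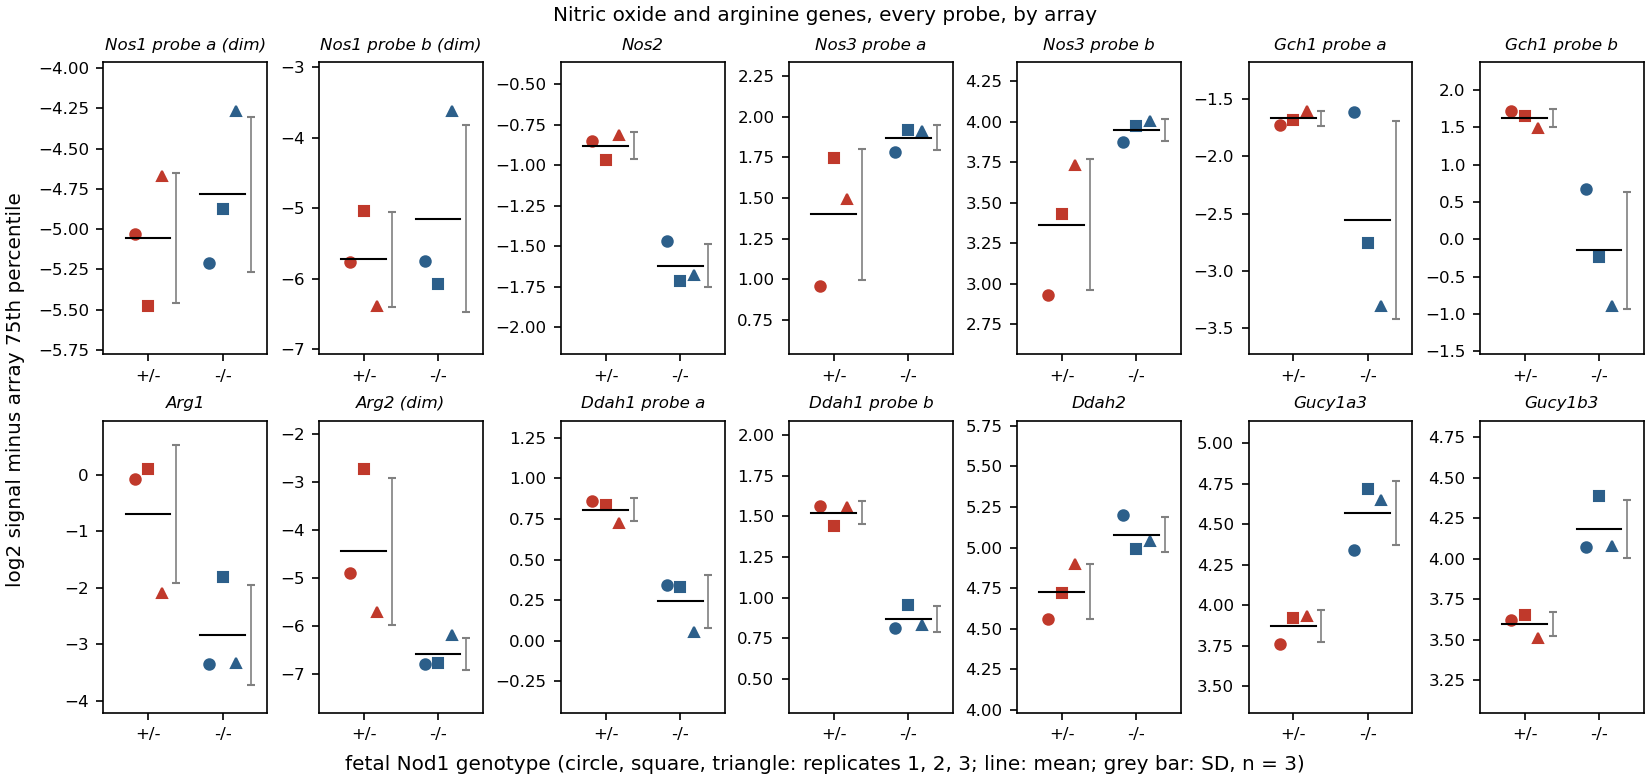
Log2 signal minus the array's 75th percentile for each of the 14 probes (y axis, own range per panel) in Nod1 +/- (red) and Nod1 -/- (blue) aortas. Circles, squares and triangles are replicates 1, 2 and 3, lines are means and grey bars the SD (n = 3). Nos2, Gch1 probe b and both Ddah1 probes show all red points above all blue points, and Gucy1a3 and Gucy1b3 show the reverse. Of the genes without a call, both Nos3 probes and Ddah2 also show the reverse. The dim Arg2 probe, which was not tested, shows red above blue.

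Among the synthases, Nos2, which encodes the inducible enzyme of inflammation, was higher in Nod1 +/- aortas. Its probe gave -0.85, -0.97 and -0.81 on Nod1 +/- replicates 1 to 3 and -1.47, -1.72 and -1.68 on Nod1 -/- replicates 1 to 3. The genotypes did not overlap, with the lowest Nod1 +/- array at -0.97 and the highest Nod1 -/- array at -1.47. The probe had only 2 spots per array. Their SD reached 0.34 (log2) on Nod1 -/- replicate 3 and 0.20 on Nod1 +/- replicate 3, which is not small beside this gap. The difference was 0.74 (SE 0.11, 95% confidence interval 0.47 to 1.01), or 1.67-fold, with limma's adjusted p = 0.0091. The call held when any single array was left out. It was lost when the slide row entered the fit (adjusted p = 0.0636), where the contrast rests on Nod1 -/- replicate 3, and without the first replicate of both genotypes (adjusted p = 0.0766).

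Nos3, the endothelial synthase gene, was read by a pair of probes on chromosome 5, at 23889636 to 23889695 (probe a) and 23890038 to 23890097 (probe b) of the plus strand of mm9. Probe b, which stood for the gene, gave 2.93, 3.43 and 3.73 in Nod1 +/- and 3.87, 3.97 and 4.0 in Nod1 -/- aortas. The Nod1 -/- arrays were all higher and close together, while the Nod1 +/- arrays were spread over a wide range. The difference of -0.58 (SE 0.21, interval -1.09 to -0.08) did not pass the threshold (limma's adjusted p = 0.102). Probe a, with 10 spots, gave 0.96, 1.75 and 1.5 against 1.78, 1.92 and 1.91, again without overlap, and a difference of -0.47 (adjusted p = 0.170 over all probes). Without Nod1 +/- replicate 3 the Nos3 difference was -0.77 and passed (adjusted p = 0.0426).

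Endothelial markers were detected on every array, and the mean of 10 such genes lay between 1.53 and 1.69 in Nod1 +/- and between 1.78 and 2.01 in Nod1 -/- aortas. Of these, Tek and Tie1, receptor genes of the endothelium, were lower in Nod1 +/- (differences -1.92 and -0.60, adjusted p = 0.0020 and 0.0333) and Robo4 was higher (0.78, adjusted p = 0.0263). These 3 were named after their values were seen. Cdh5, which encodes VE-cadherin, and Pecam1 did not pass (0.30 and -0.26). In RNA of a whole vessel, fewer cells of a type and less RNA per cell cannot be told apart, and the part of endothelial content in the Nos3 values was not tested.

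Nos1, the neuronal synthase gene, was not well above background with its first probe on any array (-5.03, -5.47 and -4.67 in Nod1 +/- and -5.21, -4.88 and -4.27 in Nod1 -/- aortas). Its other probe was well above background on Nod1 -/- replicate 3 alone, at -3.62, and lay between -6.38 and -5.03 on the other arrays. Neither probe was tested. The probes lie on the plus strand of chromosome 5, at 118404306 to 118404365 and at 118402831 to 118402890 of mm9. Skeletal muscle, a known site of this synthase, had marker means (8 genes tested) of 5.01 on Nod1 +/- replicate 1 and 0.37 to 0.89 on the other arrays.

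Gch1 encodes GTP cyclohydrolase, the rate-limiting enzyme of tetrahydrobiopterin synthesis. Probe b gave 1.72, 1.66 and 1.49 in Nod1 +/- and 0.67, -0.24 and -0.89 in Nod1 -/- aortas. The Nod1 +/- arrays were close together, all Nod1 -/- arrays were lower, and the latter spread over more than the distance between the genotypes' nearest arrays. The difference of 1.77 (SE 0.38, interval 0.86 to 2.69), 3.42-fold, was the largest among the pathway genes that passed (limma's adjusted p = 0.0263). It passed with a slide-row term (2.51, adjusted p = 0.0302) and without both first replicates (2.14, adjusted p = 0.0309). Both settings take Nod1 -/- replicate 1, the Nod1 -/- array nearest to Nod1 +/-, out of the contrast. With the slide row the contrast rests on Nod1 -/- replicate 3, the lowest array, so these 2 settings are no check of the call's strength.

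The call of Gch1 did not hold throughout. It was lost without Nod1 +/- replicate 1 (adjusted p = 0.0740), replicate 2 (0.0699) or replicate 3 (0.0526), and without Nod1 -/- replicate 2 (0.0897). Probe a, which lies farther toward the 3′ end of this minus-strand gene, gave -1.73, -1.68 and -1.60 against -1.61, -2.75 and -3.30. On this probe Nod1 -/- replicate 1 lay among the Nod1 +/- arrays, and the difference of 0.89 did not pass (SE 0.41, adjusted p = 0.185 over all probes). With the mean of both probes the gene's difference was 1.33 and missed the threshold (adjusted p = 0.0637).

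The Gch1 values of the Nod1 -/- arrays ranked in the same order as their neuronal markers. The mean of 12 neuronal genes was 1.83, 0.22 and -0.47 on Nod1 -/- replicates 1 to 3 and 0.15, -1.18 and -1.40 on the Nod1 +/- arrays. Th, which encodes the tetrahydrobiopterin-dependent tyrosine hydroxylase of catecholamine neurons, gave 2.77, 0.92 and -0.16 in Nod1 -/- and 1.11, -0.53 and -1.08 in Nod1 +/- aortas, and was named after its values were seen. The neuronal means were thus highest where Gch1 was highest within each genotype, but higher in Nod1 -/- aortas, where Gch1 was lower. The order was not particular to neurons, since the Nod1 -/- arrays also ranked this way for macrophage (2.52, 2.19 and 1.68), endothelial (2.01, 1.88 and 1.78) and fibroblast markers (5.96, 5.88 and 5.76). The part of any of these cells in the Gch1 values was not tested.

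Of the enzymes that consume arginine, Arg1, the arginase of liver and of several myeloid cells, gave -0.08, 0.10 and -2.09 in Nod1 +/- and -3.35, -1.81 and -3.33 in Nod1 -/- aortas. Nod1 +/- replicate 3 lay below Nod1 -/- replicate 2, so the genotypes overlapped. The difference of 2.14 (SE 0.70, interval 0.43 to 3.84), 4.40-fold, did not pass the threshold (limma's adjusted p = 0.084). Without Nod1 +/- replicate 3 it was 2.84 and passed (adjusted p = 0.0268), and with normexp background correction it was 1.40. The probe lies on the minus strand of chromosome 10, at 24636194 to 24636253 of mm9.

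Several cell types that express Arg1 differed between arrays. The mean of 10 neutrophil markers was 0.92, 0.96 and 0.31 on Nod1 +/- replicates 1 to 3 and lower on every Nod1 -/- array. Of the 10 genes, 6 were higher in Nod1 +/-, against 7.66% of all genes. The mean of 12 macrophage and monocyte markers lay between 1.59 and 1.78 in Nod1 +/- and between 1.68 and 2.52 in Nod1 -/- aortas. Of these 12, 3 were lower in Nod1 +/-, against 11% of all genes. Hepatocyte markers without Arg1 (6 genes) averaged 2.48, 1.96 and 0.61 in Nod1 +/- and -0.31, 3.20 and 1.97 in Nod1 -/- aortas, and limma called 0 of them, also without adjustment. Nod1 +/- replicate 3 was thus the lowest Nod1 +/- array for Arg1, neutrophil and hepatocyte transcripts alike, and Nod1 -/- replicate 2 was the highest Nod1 -/- array for Arg1 and hepatocyte transcripts. These ranks were not particular to such cells. Nod1 +/- replicate 3 was also lowest for macrophage (1.59), neuronal (-1.40), Schwann cell, skeletal muscle, cardiac (4.71), epithelial and red cell markers (2.62), but not for smooth muscle, endothelial or fibroblast markers. Nod1 -/- replicate 2 was also highest for red cell markers (4.24). The part of these cells in the Arg1 values was not tested.

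**Figure D2:**
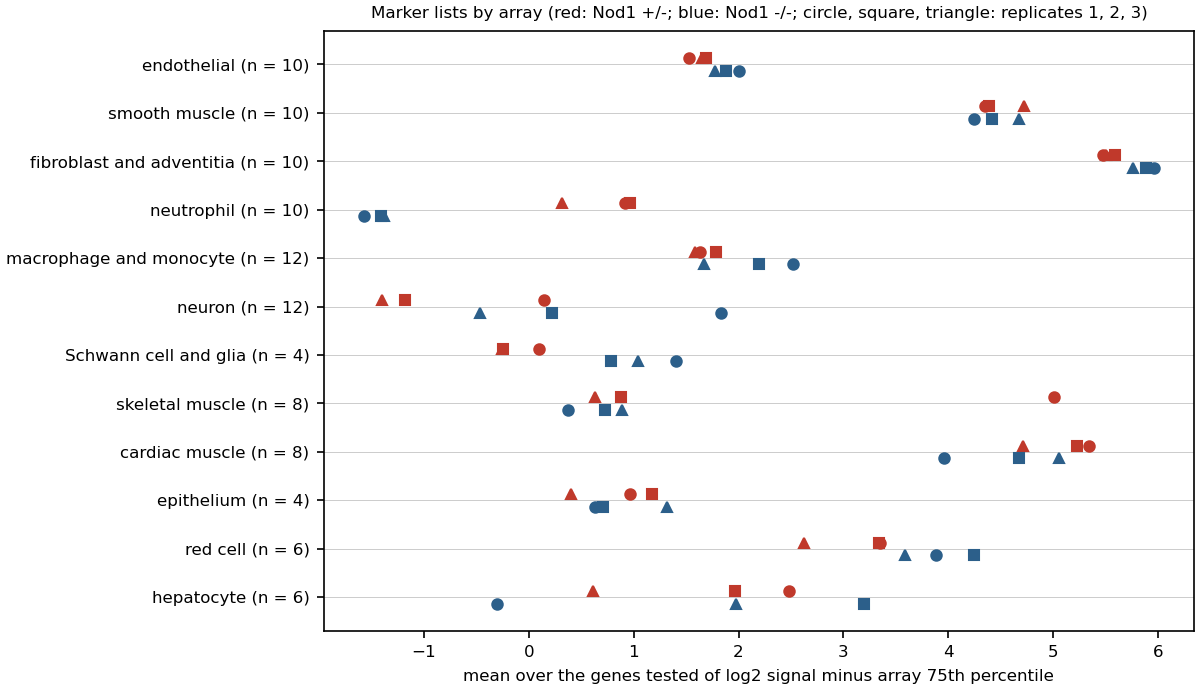
Mean log2 signal minus the array's 75th percentile over the tested genes of each cell type marker list (x axis, number of genes beside the name) for every array, red for Nod1 +/- and blue for Nod1 -/-, with circles, squares and triangles for replicates 1, 2 and 3. Neutrophil means separate the genotypes, as do, in the other direction, endothelial, fibroblast, Schwann cell and red cell means. The endothelial list holds genes called in either direction, and the Schwann cell mean covers 4 of 8 listed genes. Smooth muscle means overlap, and Nod1 +/- replicate 1 stands apart in skeletal muscle at 5.01.

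Arg2, the mitochondrial arginase gene, was well above background on Nod1 +/- replicate 2 alone. Its probe (plus strand of chromosome 12, 80252972 to 80253031) gave -4.89, -2.73 and -5.71 in Nod1 +/- and -6.80, -6.77 and -6.20 in Nod1 -/- aortas. No Nod1 -/- array was thus well above background, and the gene was not tested. With signal on 1 array, no fold is given.

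Ddah1, which encodes a hydrolase of asymmetric dimethylarginine, was higher in Nod1 +/- aortas with both of its probes. Probe b (plus strand of chromosome 3, 145556803 to 145556862) gave 1.57, 1.44 and 1.56 against 0.81, 0.96 and 0.83 in Nod1 -/- aortas. Each genotype's arrays lay close together and the genotypes did not overlap. The difference was 0.65 (SE 0.10, interval 0.42 to 0.89), 1.57-fold, with limma's adjusted p = 0.0088. Probe a (145516152 to 145516211), with 10 spots, gave 0.86, 0.83 and 0.73 against 0.34, 0.33 and 0.05 and a difference of 0.57 (adjusted p = 0.0288 over all probes). The call held when any single array was left out, but not with a slide-row term (adjusted p = 0.0644) or without both first replicates (0.125).

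Ddah2, the other hydrolase gene, lies on the plus strand of chromosome 17 (probe at 35198877 to 35198936). It gave 4.56, 4.72 and 4.90 in Nod1 +/- and 5.2, 4.99 and 5.04 in Nod1 -/- aortas. The Nod1 -/- arrays were all higher, by a small margin over Nod1 +/- replicate 3. The difference of -0.35 (SE 0.12, interval -0.65 to -0.05) did not pass (limma's adjusted p = 0.101). The values of the hydrolase pair thus had opposite signs, with the call resting on Ddah1.

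Transcripts of both subunits of the nitric oxide receptor were lower in Nod1 +/- aortas, each read by a single probe. Gucy1a3 encodes the alpha 1 subunit of soluble guanylate cyclase, and its probe (minus strand of chromosome 3, 81896409 to 81896468) gave 3.76, 3.92 and 3.93 in Nod1 +/- and 4.34, 4.72 and 4.65 in Nod1 -/- aortas. Gucy1b3 encodes the heme-binding beta 1 subunit, and its probe (81836142 to 81836201) gave 3.62, 3.65 and 3.51 against 4.07, 4.39 and 4.08. For both subunits every Nod1 +/- array lay below every Nod1 -/- array. The difference was -0.70 for Gucy1a3 (SE 0.13, interval -1.02 to -0.38; 1.62-fold; limma's adjusted p = 0.0186) and -0.58 for Gucy1b3 (SE 0.12, interval -0.88 to -0.29; 1.5-fold; adjusted p = 0.0249).

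These calls of the cyclase subunits depended on the scaling and on single arrays. With median scaling the differences were -0.59 and -0.48 and missed the threshold (adjusted p = 0.0596 for Gucy1a3 and 0.142 for Gucy1b3). The Gucy1a3 call was lost without the first or second Nod1 +/- array or the second Nod1 -/- array (adjusted p between 0.0512 and 0.0672). The Gucy1b3 call was lost without any one array except Nod1 -/- replicate 3 (0.0543 to 0.0704). With the slide row in the fit the values were -0.78 (adjusted p = 0.0958) and -0.48 (0.185). Smooth muscle, the main site of this receptor in the vessel wall, gave marker means of 4.35, 4.38 and 4.72 in Nod1 +/- and 4.24, 4.41 and 4.67 in Nod1 -/- aortas. Of its 10 markers 0 passed in limma, with 2 at an unadjusted p under 0.05. These 2, named after their values were seen, had opposite signs (Actg2 0.53 and Synpo2 -0.56). The part of smooth muscle content in the cyclase values was not tested.

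**Figure D3:**
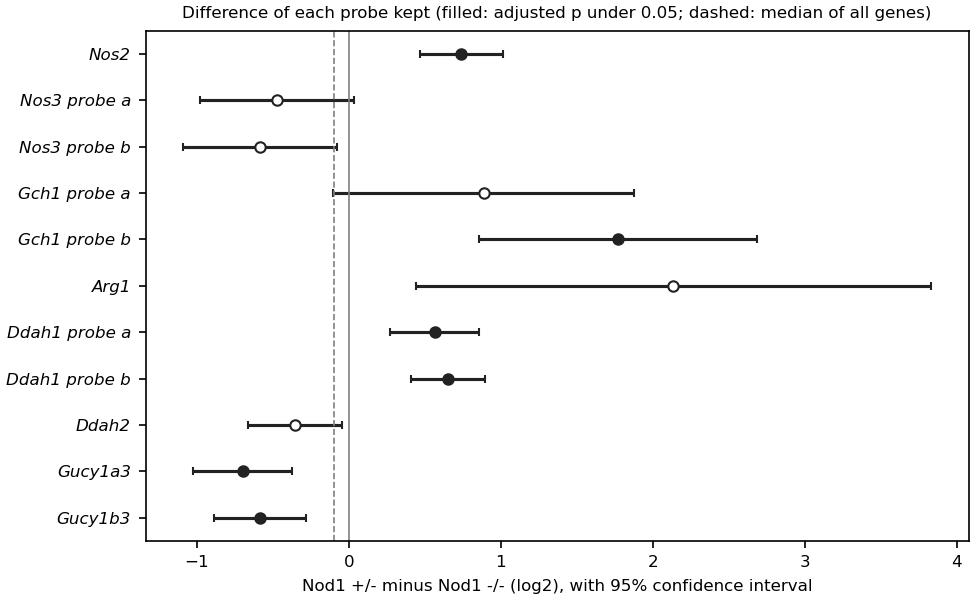
Difference between Nod1 +/- and Nod1 -/- aortas on the log2 scale (x axis) for each of the 11 probes kept, with 95% confidence intervals. Filled points have an adjusted p under 0.05 over all probes, and the dashed line marks the median of all genes at -0.10. Nos2, Gch1 probe b and the Ddah1 probes lie to the right of 0, and the cyclase subunits to the left.

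The genes whose array-to-array pattern lay nearest to each changed gene were taken by the root mean square difference of deviations over the 6 arrays, in log2 units. For Nos2 they were Ctdp1 (0.038) and Tnfsf9, a ligand of the tumour necrosis factor family (0.049). Those of Ddah1 were Pfkfb3, which encodes a regulator of glycolysis (0.035), and Ctps, a CTP synthase gene (0.045). Gch1 lay nearest to Mnda (0.10) and to a probe with no gene name (0.16). Gucy1b3 lay nearest to Bmpr1a, a receptor of bone morphogenetic proteins, and Bbs10 (0.042 each), and Gucy1a3 to an unnamed transcribed region on chromosome 17 (0.039) and Slc35a5 (0.057). With 6 arrays in 2 groups, many genes that differ by a like amount have a like pattern.

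Beyond these genes, 8 lists of the surrounding pathway held 95 genes, of which 80 were tested. In these, 11 were higher in Nod1 +/- aortas, 11 were lower and 58 did not pass, where 7.66% of all genes were higher and 11% lower, with a median difference of -0.09, close to that of all genes. Under median scaling 9 were higher and 3 lower. These lists, too, were chosen with earlier results of these data known. Of the 22 calls, Ass1 alone passed under all 17 alternative settings. The calls of Slc7a7, Srm, Prmt1, Nos1ap, Cav2, Pde1a, Txnrd1 and Sod2 also held when any single array was left out, though those of Cav2 and Pde1a were lost with the mean of a gene's probes.

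**Figure D4:**
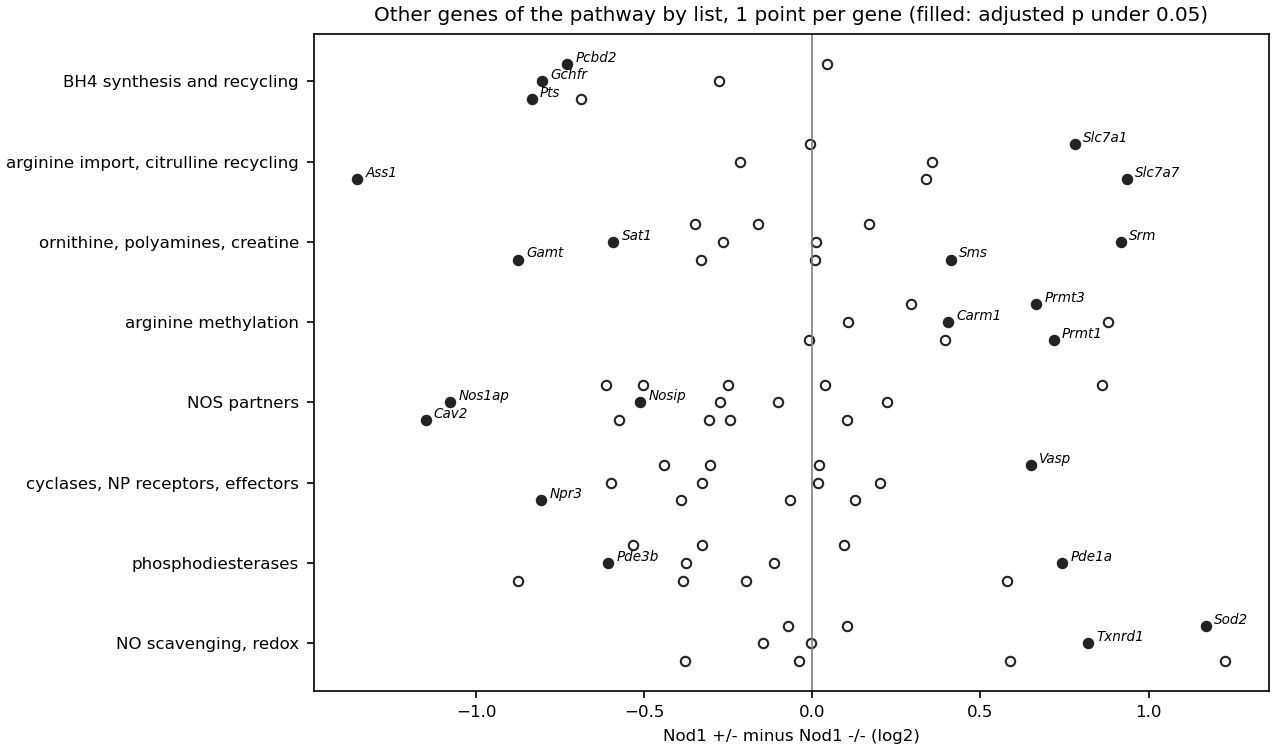
Difference between Nod1 +/- and Nod1 -/- aortas (x axis, log2) for each tested gene of 8 pathway lists (rows), 1 point per gene, filled and named where the adjusted p was under 0.05. BH4 is tetrahydrobiopterin, NOS nitric oxide synthase and NP natriuretic peptide. Ass1 lies farthest left at -1.35, and all named genes of BH4 synthesis lie left of 0.

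Of 6 other genes of tetrahydrobiopterin synthesis and recycling, 3 were lower in Nod1 +/- aortas and 0 higher, where 11% of all genes were lower. The list median was -0.71. Pts, the enzyme after GTP cyclohydrolase, had a difference of -0.83 (adjusted p = 0.0189) and Pcbd2, a pterin dehydratase gene, of -0.73 (0.0172). Gchfr, named after its values were seen, encodes the feedback protein that binds GTP cyclohydrolase and had a difference of -0.80 (0.0267). Spr and Qdpr, the last step of synthesis and the main recycling enzyme, did not pass (0.04 and -0.28). Under median scaling limma called 0 of the 6 (3 at an unadjusted p under 0.05), with a median of -0.60. Single arrays also ended these calls: Pcbd2 without replicate 2 of either genotype or Nod1 -/- replicate 1 (adjusted p 0.0508 to 0.0614), Pts without Nod1 +/- replicate 1 or Nod1 -/- replicate 2 (0.0583 to 0.0709), and Gchfr without replicate 1 of either genotype, Nod1 +/- replicate 3 or Nod1 -/- replicate 2 (0.0578 to 0.0772).

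In arginine supply, Ass1, which encodes the enzyme that starts the return of citrulline to arginine, was lower in Nod1 +/- aortas. It gave 1.01, 1.14 and 0.93 in Nod1 +/- and 2.40, 2.50 and 2.23 in Nod1 -/- aortas. The genotypes were far apart relative to their spread, and the difference was -1.35 (SE 0.12), 2.56-fold, with limma's adjusted p = 0.0019. A further Ass1 probe gave -1.23 (adjusted p = 0.0094 over all probes). The transporter genes Slc7a7 and Slc7a1, whose products carry cationic amino acids, were higher (0.94, adjusted p = 0.0048, and 0.78, 0.0222), the latter not without replicate 1 of either genotype or Nod1 -/- replicate 2 (0.0618 to 0.0787). Asl, the next enzyme of citrulline recycling, did not pass (-0.22), and Slc7a2, a transporter of arginine into macrophages and other cells, lay at -0.01. Nags and Otc, of the liver urea cycle, were not well above background on any array. In all, 2 of 7 genes were higher and 1 lower, against 7.66% and 11% of all genes.

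Among 11 tested genes of ornithine, polyamine and creatine synthesis, 2 were higher and 2 lower, against 7.66% and 11% of all genes. Srm, the spermidine synthase gene, was higher with both of its probes (0.92, adjusted p = 0.0039, and 0.97, 0.0050 over all probes). Sms, the spermine synthase gene, was higher by 0.41 (0.0463), while Sat1, which encodes the acetylase that opens polyamine breakdown, had a difference of -0.59 (0.0254) and Gamt, of creatine synthesis, of -0.88 (0.0425). Odc1, the ornithine decarboxylase gene, did not pass (0.17). Sms lost its call without any single array (0.0657 to 0.135), Gamt without any but Nod1 +/- replicate 1 (0.0690 to 0.131) and Sat1 without any but Nod1 +/- replicate 2 or Nod1 -/- replicate 3 (0.0532 to 0.0814). These 3 calls were also lost under median scaling.

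Of 8 tested genes of arginine methylation, 3 protein arginine methyltransferase genes were higher in Nod1 +/- aortas and 0 were lower, where 7.66% of all genes were higher. Prmt1, which makes most asymmetric dimethylarginine in proteins, differed by 0.72 (adjusted p = 0.0069), but a second probe of it gave 0.47 and did not pass (0.121 over all probes). Prmt3 differed by 0.67 (0.0386) and Carm1 by 0.40 (0.0400). Prmt3 lost its call without any array except Nod1 +/- replicate 3 (0.0685 to 0.109) and under median scaling, and Carm1 without any single array (0.0548 to 0.125).

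Of 15 partners of the synthases, 3 were lower in Nod1 +/- aortas and 0 higher, a share near the 18.7% of all genes called. Nos1ap, an adaptor of the neuronal synthase, was lower with both probes (-1.08, adjusted p = 0.0072, and -1.03, 0.0158 over all probes). Cav2, a caveolin gene, differed by -1.15 (0.0115), by -0.52 with a second probe (0.0203 over all probes) and by -0.18 with the other (0.798). With the mean of its probes it differed by -0.62 and missed the threshold (0.0658). Nosip, which encodes a protein that binds the endothelial synthase, differed by -0.51 (0.0308), which was lost under median scaling and without any array except Nod1 -/- replicate 3 (0.0629 to 0.0953). Cav1, the caveolin that holds the endothelial synthase in its inactive state, gave 1.28, 1.53 and 0.92 against 1.77, 2.06 and 1.74 and did not pass (-0.61, 0.0664).

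Downstream of nitric oxide the shares called were near that of all genes (18.7%), with 2 of 12 and 2 of 11. Of the 12 other cyclase, natriuretic peptide receptor and effector genes, Vasp, a substrate of the cyclic GMP-dependent kinase, was higher (0.65, adjusted p = 0.0409) and Npr3, the clearance receptor of natriuretic peptides, was lower (-0.81, 0.0425). Vasp lost its call without any array except Nod1 +/- replicate 1 (0.0726 to 0.125), and Npr3 without any single array (0.0503 to 0.111) and under median scaling. Prkg1, the kinase gene of smooth muscle, did not pass (-0.07). Of the 11 phosphodiesterase genes, Pde3b was lower (-0.61, 0.0180), which was lost under median scaling and without replicate 2 of either genotype (0.0594 to 0.0635). Pde1a was higher with one probe (0.74, 0.0094), and another probe of it gave -0.20 (0.212 over all probes). With the mean of both it differed by 0.27 and missed the threshold (0.0910). Pde5a, the main cyclic GMP phosphodiesterase of vessels, did not pass (0.58), and Nod1 +/- replicate 3 stood apart at 1.32 against -0.79 to -0.45 on the other arrays.

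Of 10 genes of nitric oxide scavenging and denitrosylation, 2 were higher in Nod1 +/- aortas and 0 lower, a share near the 18.7% of all genes called. Sod2, which encodes the mitochondrial enzyme that removes superoxide, gave 5.88, 5.78 and 5.45 in Nod1 +/- and 4.55, 4.67 and 4.37 in Nod1 -/- aortas. Every Nod1 +/- array lay above every Nod1 -/- array, and the difference was 1.17 (SE 0.15), 2.25-fold, with limma's adjusted p = 0.0061. Txnrd1, the thioredoxin reductase gene, gave 3.52, 3.54 and 3.62 against 2.78, 2.74 and 2.70. Its arrays lay close together within each genotype, and the difference was 0.82 (SE 0.09, adjusted p = 0.0034).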

How the data were processed

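Total RNA of 6 aortic samples was labelled with Cy3 and hybridised to 1-colour Agilent arrays, 3 per genotype by the labels. The deposited scanner files give spot intensity, from which Feature Extraction had subtracted background (version 10.7.1.1 in the file headers, 9.5.1.1 in the submitters' processing notes). Probe positions refer to mm9, per the file headers, and the deposited flags for background, saturation and outliers are other, non-intensity columns. The deposited value table of the authors, also intensity, had the same distribution in every column (median 33.4) by a step not given in the sources used here, and served as an alternative. The 6 arrays shared 1 slide and 1 scan time, Nod1 -/- replicates 1 and 2 in row 1 and the others in row 2, and 0 spots were saturated.

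Log2 signals were averaged per probe after control spots and outliers were left out, and the array's 75th percentile was subtracted. Of 55681 probes, 134 without a usable spot on some array were left out, and 30166 were well above background on at least 3 of 6 arrays. The kept probe with the highest mean stood for a gene (21478 genes). Genotypes were compared with limma 3.58.1 (lmFit, eBayes) in R 4.3.3 with the data.table package (version 1.17.8), with Benjamini-Hochberg adjustment over all genes, or all probes where said, at 0.05. On simulated data with 21478 genes, 66% of 100 genes changed by 1 and 88% of 100 changed by 2 (log2) were recovered, with 7 false calls. No other genes were changed there, while 4015 were called in the data, so these shares do not give the power of the reported fit. Plots used matplotlib 3.10.9 and numpy 2.4.6.

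The genes and lists were chosen with earlier results of these data known. From each pathway list, up to 3 passing genes per direction were named by smallest p, as were the 2 tested genes nearest in pattern to each changed gene, and other genes as values or where said. Alternatives covered normexp background correction (offset 50), scaling, dim-probe filters, the mean of a gene's probes, the variance model, the replicate or slide-row block, the deposited table and leaving out arrays. Applying them to the pathway lists was chosen after seeing the data. A gene of the pathway lists is not reported here. No exon annotation of mm9 was used here, and probes are placed by coordinates alone.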

Additional observations from a re-analysis of the deposited data

How the results depend on the processing

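No direction turned over for the 8 pathway genes tested under the 17 settings run. Of 136 comparisons with the reported values, 26 lost a call, 3 gained one and the rest kept their side of the threshold. The 136 include the 3 genes without a call, which had none to lose. All 26 losses fell on the 5 called genes. Of 17 settings each, Nos2 and Ddah1 lost the call in 2, Gch1 in 6, Gucy1a3 in 7 and Gucy1b3 in 9. For the 22 surrounding genes that passed, 249 of 374 comparisons kept the call and 125 lost it. Median scaling gave 2524 changed genes against 4015, 3 pathway genes against 5, 12 surrounding genes against 22 and 3 probes against 6. Without a filter on dim probes there were 1639, 2 (Nos2 and Ddah1) and 9, over more genes tested. The slide row as a block gave 1034, 1 (Gch1) and 5, and leaving out the first replicate of both genotypes gave 619, 1 (Gch1) and 1 (Ass1), with fewer samples in the latter. The causes of the other shifts were not tested. Leaving out each array gave 1541 to 3484 changed genes, 2 to 5 pathway genes, 9 to 19 surrounding genes and 2 to 6 probes. Same-numbered arrays deviated together with correlations of 0.083, 0.28 and 0.11, and not every array correlated best with its own number, so the numbers were not taken as pairs. With the replicate block there were 4041 changed genes, 6 pathway genes (Arg1 added, adjusted p = 0.0488), 22 surrounding genes and 6 probes. The block ended the calls of Gamt (adjusted p = 0.0591), Carm1 (0.0521), Vasp (0.0669) and Npr3 (0.0638), so these 22 are in part different genes. It called 9 of 12 neuronal markers lower in Nod1 +/- aortas, where limma without the block called 0, with 1 at an unadjusted p under 0.05. Low signal limits Nos1 and Arg2, which were well above background on at most 1 array of a genotype.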
